A study of Mus musculus with 4 samples.

Results

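The genes described here are 10 mouse genes for jumonji (JmjC) enzymes: Kdm2a, Kdm2b, Kdm3a, Kdm3b, Kdm4a, Kdm4b, Kdm4c, Kdm5b, Kdm6b and Jmjd6. They were found by exact symbol among the 25630 rows of the deposited RNA table, and all 10 were present. RNA was measured in the cell line BEKO, labelled as wild-type thymic lymphoma cells, in 2 libraries of cells at high density and 2 libraries of cells at low density. Both groups are the same line, with no treatment or modification named, and differ in the labels by density alone. No cell number, medium or culture time is given for either density. The labels do not state whether the pair of libraries at each density came from different cultures, so a p-value covers the variation between libraries alone, and this may be technical. The genes were chosen with their levels at both densities already known, so their values are given as a description and no p-value is printed for them.

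JmjC enzymes use molecular oxygen, ferrous iron and 2-oxoglutarate to hydroxylate their substrates, and on a methylated lysine this removes the methyl group. The classes differ in the lysine of histone H3 that they act on: KDM5 on H3K4, KDM3 on H3K9, KDM6 on H3K27, KDM2 on H3K36, and KDM4 on both H3K9 and H3K36. Methylation of H3K4 and H3K36 is usual on transcribed genes and methylation of H3K9 and H3K27 on silent ones. In human and mouse cells Kdm3a, Kdm4b and Kdm4c are known as targets of hypoxia-inducible factor (HIF), the transcription factor stabilised when oxygen is low.

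Values are TPM, a level per transcript length that is scaled to a fixed total and so relative to all RNA in the library. The libraries had between 13605 and 15553 rows above 0. The T lineage label was checked on 8 markers (Cd3d, Cd3e, Cd3g, Cd247, Lck, Zap70, Trdc and Thy1), whose summed level was 5969 and 5440 TPM at high density and 6051 and 5747 TPM at low density. Of these 8, the T cell receptor delta constant gene Trdc differed with density, at 101 and 77.1 TPM at high density and 18.1 and 16.0 TPM at low density (log2 fold change 2.31 ± 0.27 SE, limma adjusted p = 0.000911), and the other 7 were not called. The summed level of 4 B cell markers was at most 1.29 TPM and that of 4 epithelial markers at most 0.46 TPM in any library, with Ms4a1, Cd79b, Epcam and Krt18 listed at 0 throughout. The 4 myeloid markers summed to 16.1 and 12.1 TPM at high density and 8.5 and 6.62 TPM at low density, nearly all of it Itgam, while Lyz2 was listed at 0. The 4 erythroid markers summed to 1.19 and 0.749 TPM at high density and 4.38 and 1.06 TPM at low density, with Hba-a1 and Hbb-b1 listed at 0. The 4 fibroblast markers summed to 0.292 and 0.536 TPM at high density and to 46.7 and 0.263 TPM at low density, so low density library 1 stood apart, through Col1a1 and Col1a2, with Dcn at 0. The part of these markers in any result was not tested. For the JmjC genes and the further gene lists, values without low density library 1 are given where they change a call. For the markers, Trdc included, no values under other settings are given. In bulk RNA, fewer cells of a type and less RNA per cell cannot be told apart.

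Of the 10 genes, 9 were expressed above trace level, and these 9 averaged higher at high density. The summed level of the 10 genes was 1163 and 1055 TPM at high density, against 504 and 427 TPM at low density, which is 2.38 times the low density mean. Kdm3a and Jmjd6 together made up 53.7% and 43.9% of that sum at high density, against 31.0% and 35.3% at low density. In 8 of the 9 genes that passed a filter on low values (the 4 libraries averaging 1 TPM or more), both high density libraries lay above both low density libraries, and Kdm4a was the exception. Among all 10936 rows that passed the filter, 34.7% were ordered in this way. The log2 fold changes, taken on log2(TPM + 1) as high minus low density, ran from 0.42 for Kdm2b to 1.92 for Kdm3a with a median of 1.02, beside a median of 0.12 over all rows tested. All 9 were above 0, as were 59.7% of all rows tested. They stayed above 0 in each of the 8 alternative settings that can move them. For the 8 genes whose groups did not overlap, only the 2 rescalings of the libraries among these settings could have turned the sign.

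In a linear model fitted across all rows with limma, 5 of the 9 genes passed an adjusted p under 0.05, all in the direction of higher levels at high density, where 4.57% of all rows tested did so and 2.11% passed in the direction of lower levels. These were Kdm3a, Jmjd6, Kdm4b, Kdm6b and Kdm4c. The contrast is the one the genes were chosen on, so this count is descriptive and nothing is read from it. It was 3 without low density library 1, where Kdm4c and Kdm6b no longer passed, and 2 without low density library 2, where Kdm4b also did not. Without high density library 1 the count was 7, with Kdm2a and Kdm4a added. In such a fit 1 group holds a single library, which is assumed to vary like the pair of the other group. After median centring of the libraries the count was 2, Jmjd6 and Kdm4b, where 160 of all 10936 rows tested were called higher. Kdm3a then no longer passed, at a log2 fold change of 1.73.

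**Figure D1:**
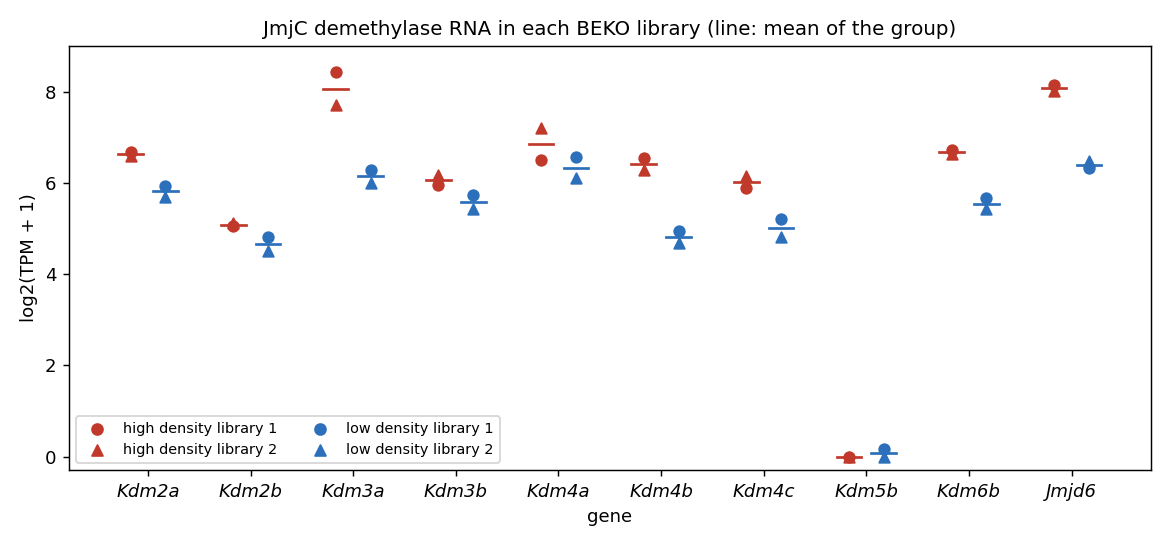
Levels of the 10 genes as log2(TPM + 1) in each library, with high density in red to the left of low density in blue; circles are library 1, triangles library 2 and lines group means. Kdm3a and Jmjd6 reach the highest levels at high density, the groups of Kdm4a overlap, and Kdm5b lies at or near 0.

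The stretches of DNA before the transcription start are shown for 4 of the genes, from the one with the largest change to one with overlapping groups. They are RefSeq promoter windows on build GRCm38.p6, cut to the 250 bases before the annotated start and written 5′ to 3′ on the strand of the gene. Capitals mark ACGTG or GCGTG on either strand, the core letters of the element that HIF binds. For genes with several annotated starts the window with most matches is shown. The Kdm3a window is chr6:71632918-71633167 on the minus strand, that of Jmjd6 is chr11:116843450-116843699 on the minus strand, that of Kdm4c is chr4:74251629-74251878 on the plus strand, and that of Kdm4a is chr4:118180044-118180293 on the minus strand.
Kdm3a: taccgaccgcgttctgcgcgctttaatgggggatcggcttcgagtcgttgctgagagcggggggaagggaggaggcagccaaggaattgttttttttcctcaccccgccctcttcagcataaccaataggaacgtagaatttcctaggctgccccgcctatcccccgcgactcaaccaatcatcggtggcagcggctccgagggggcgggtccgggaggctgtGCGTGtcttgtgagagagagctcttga
Jmjd6: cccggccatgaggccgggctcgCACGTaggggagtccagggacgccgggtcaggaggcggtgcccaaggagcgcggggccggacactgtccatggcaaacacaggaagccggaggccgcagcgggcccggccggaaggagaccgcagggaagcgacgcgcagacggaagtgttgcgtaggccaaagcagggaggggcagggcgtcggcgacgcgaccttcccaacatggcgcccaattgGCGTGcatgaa
Kdm4c: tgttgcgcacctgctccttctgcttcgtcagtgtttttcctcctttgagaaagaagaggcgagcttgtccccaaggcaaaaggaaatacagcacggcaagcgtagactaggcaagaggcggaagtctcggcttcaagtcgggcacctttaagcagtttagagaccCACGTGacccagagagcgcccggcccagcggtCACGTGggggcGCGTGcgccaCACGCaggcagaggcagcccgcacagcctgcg
Kdm4a: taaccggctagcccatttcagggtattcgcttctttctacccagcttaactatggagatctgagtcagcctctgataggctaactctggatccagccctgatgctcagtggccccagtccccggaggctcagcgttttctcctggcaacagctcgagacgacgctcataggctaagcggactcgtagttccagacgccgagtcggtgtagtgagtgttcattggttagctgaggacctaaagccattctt
The Kdm3a window holds 1 match, GCGTG at 27 to 23 bases before the start, and the other 2 annotated Kdm3a starts have none within 250 bases before to 50 after. The Jmjd6 window holds 2 matches, and the Kdm4c window 6, of which 4 lie in 2 copies of the palindrome CACGTG, which holds ACGTG on both strands and is also the letters of an E-box. The Kdm4a window holds none. Kdm2b, which changed least and has a match in each of its windows, is not shown. The 4 windows therefore give no relation between matches and changes. Of the 10 genes, 6 had a window in the table and 5 of these had a match in at least 1 window, among them Kdm2b, whose levels differed least, and Kdm5b, which was barely detected. Over all mouse genes with a window, 46.7% had a match, so a match is common and is a description of the letters only. Kdm2a, Kdm3b, Kdm4b and Kdm6b had no entry.

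The KDM3 class, which removes mono- and dimethylation from H3K9, held both the largest and one of the smallest changes. Kdm3a was at 341 and 207 TPM in the high density libraries, against 76.8 and 62.9 TPM in the low density libraries. The groups were far apart, but the high density libraries also differed from each other, library 1 being the higher. The ratio of means was 3.92, or 2.96 with high density library 2 as the only one of its group and 4.89 with library 1 as the only one, and the log2 fold change was 1.92 ± 0.28 (SE). Kdm3b, the other KDM3 gene of the list, was at 61.3 and 71.3 TPM at high density and at 51.8 and 42.3 TPM at low density, a ratio of means of 1.41 and a log2 fold change of 0.49 ± 0.25 (SE). Dividing Kdm3a by Kdm3b within each library removes any scaling of that library as a whole. This ratio was 5.56 and 2.90 at high density, against 1.48 and 1.49 at low density, so it was nearly equal in the low density libraries and higher but unequal in the high density ones.

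In the KDM4 class, which acts on trimethylated H3K9 and H3K36, the 3 genes differed in how far they moved. Kdm4b was at 92.4 and 76.5 TPM at high density and at 29.6 and 24.8 TPM at low density, with a ratio of means of 3.10 and a log2 fold change of 1.60 ± 0.26 (SE). Kdm4c was at 58.0 and 70.1 TPM at high density, against 35.7 and 26.9 TPM at low density, a ratio of 2.05. Both genes thus stood clear of their low density values in every library. Kdm4a was at 90.0 and 147 TPM at high density and at 93.7 and 67.6 TPM at low density, so that high density library 1 lay within the low density range. Its log2 fold change was 0.52 ± 0.29 (SE), and 0.17 without high density library 2. Within a library, the ratio of Kdm4b to Kdm4a was 1.03 and 0.522 at high density, against 0.316 and 0.367 at low density. The ratio of Kdm4c to Kdm4a was 0.645 and 0.479 at high density and 0.381 and 0.397 at low density. Kdm4a was therefore about as abundant as Kdm4b in high density library 1 and the most abundant of the class in the other 3 libraries.

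**Figure D2:**
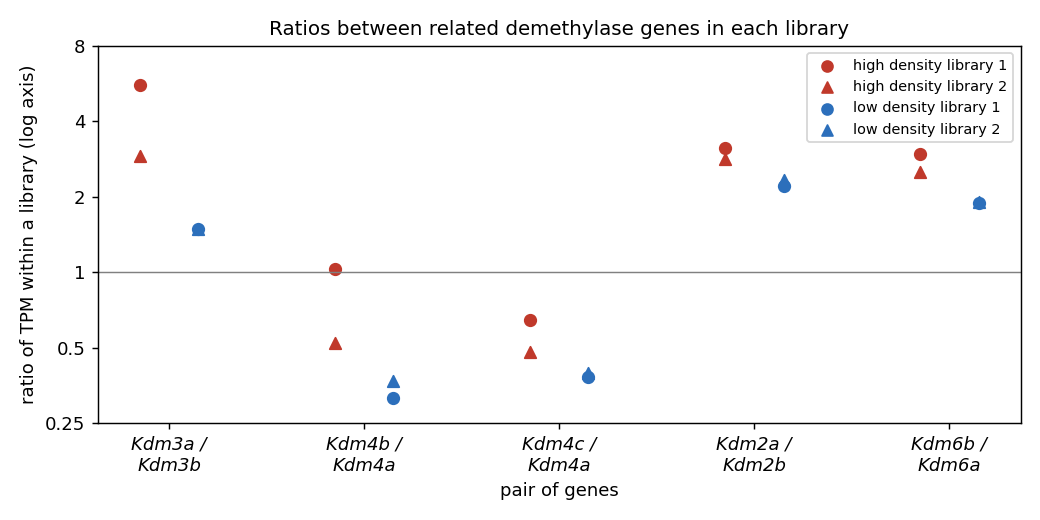
Ratios of TPM between related demethylase genes, computed within each library and drawn on a log axis, with high density in red to the left of low density in blue. The ratio of Kdm3a to Kdm3b is 5.56 and 2.90 at high density and 1.48 and 1.49 at low density. In all 5 pairs shown both high density ratios lie above both low density ratios. The numerator of each pair is the gene with the larger log2 fold change, so this direction is set by the choice of numerator. No share over other gene pairs was computed.

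The KDM2 class demethylates H3K36 and binds unmethylated CpG islands through a zinc finger, and KDM2B brings a variant Polycomb complex, PRC1.1, to such sites. Kdm2a was at 101 and 94.9 TPM at high density and at 60.0 and 50.8 TPM at low density, with a log2 fold change of 0.81 ± 0.24 (SE). Kdm2b was at 32.1 and 33.6 TPM at high density, against 27.3 and 21.7 TPM at low density, with a log2 fold change of 0.42 ± 0.27 (SE). The groups did not overlap for either gene, but the gap between them was narrow for Kdm2b, where 12.5% of the 50-base stretches of the longest annotated transcript also occur in other annotated transcripts. The ratio of Kdm2a to Kdm2b was 3.14 and 2.83 at high density and 2.20 and 2.34 at low density.

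KDM6B removes methylation from H3K27 and is known as an inducible enzyme in immune cells. Kdm6b was at 104 and 98.6 TPM at high density and at 49.7 and 42.0 TPM at low density, a ratio of means of 2.21 and a log2 fold change of 1.13 ± 0.24 (SE). The libraries of each density lay close together and the groups were well apart. Its relative Kdm6a, which was not among the 10 genes, was at 35.1 and 39.3 TPM at high density and at 26.4 and 22.1 TPM at low density. The ratio of Kdm6b to Kdm6a was 2.97 and 2.51 at high density, against 1.88 and 1.90 at low density.

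KDM5B removes methylation from H3K4. Kdm5b was listed at 0 in both high density libraries, and at 0.125 and 0 TPM in low density libraries 1 and 2, so it lay below the filter and no fold change is given. None of the 50-base stretches of its longest annotated transcript occur in a transcript of another gene. A value of 0 in this table is not proof of absence, since Rpl26 and Ndufs5, a ribosomal protein gene and a respiratory chain gene that growing cells use, are also listed at 0 in all 4 libraries (named after their values were seen). Of the RNA listed for KDM5 genes in these cells, most was Kdm5a and Kdm5c. Kdm5a was at 46.2 and 66.3 TPM at high density and at 34.3 and 28.4 TPM at low density, and Kdm5c at 57.5 and 60.1 TPM at high density and at 43.8 and 32.8 TPM at low density. Neither passed the test (limma adjusted p = 0.104 for Kdm5a and 0.175 for Kdm5c), and Kdm5a passed without high density library 1, where the spread is that of the low density pair (limma adjusted p = 0.00772; 0.00772 to 0.930 over all alternatives).

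JMJD6 differs from the KDM classes in that it hydroxylates lysines of splicing factors such as U2AF65, and its activity as a histone demethylase is disputed. Jmjd6 was at 283 and 256 TPM in the high density libraries, against 79.2 and 87.7 TPM in the low density libraries. Library values within each density were close, and the ratio of means, 3.23, stayed between 3.07 and 3.40 when any single library was left out. The log2 fold change was 1.68 ± 0.23 (SE). Annotated exons of Jmjd6 overlap those of Mettl23 on the opposite strand over 3.66% of their length, and none of the sources used here states whether the counting used the strand. Annotated overlaps on the opposite strand were larger for Kdm3b (Gm26538, 24.6% of exon length) and also present for Kdm2b (Rnf34, 5.77%) and Kdm6b (Kdm6bos, 4.11%).

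The order of levels shifted between the densities. At high density it ran Kdm3a (274 ± 94.9 TPM, SD, n = 2), Jmjd6 (270 ± 19.1), Kdm4a (118 ± 39.9), Kdm6b (101 ± 3.97), Kdm2a (97.8 ± 4.08), Kdm4b (84.5 ± 11.2), Kdm3b (66.3 ± 7.07), Kdm4c (64.1 ± 8.58), Kdm2b (32.8 ± 1.06) and Kdm5b. Library values of neighbours overlapped for Kdm3a with Jmjd6, for Kdm4a with Kdm6b, for Kdm6b with Kdm2a and for Kdm3b with Kdm4c, so these pairs cannot be ranked. At low density the order was Jmjd6 (83.4 ± 5.97 TPM), Kdm4a (80.7 ± 18.4), Kdm3a (69.8 ± 9.83), Kdm2a (55.4 ± 6.54), Kdm3b (47.1 ± 6.74), Kdm6b (45.9 ± 5.44), Kdm4c (31.3 ± 6.21), Kdm4b (27.2 ± 3.41), Kdm2b (24.5 ± 3.96) and Kdm5b. There, values stood apart from the next gene only below Kdm3a, below Kdm6b and below Kdm2b. At high density both Kdm4b libraries thus lay above both Kdm3b libraries, and at low density both lay below.

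Rows with profiles most like the extremes were sought by Euclidean distance between log2(TPM + 1) profiles over the 4 libraries, each centred on its own mean, among 8998 named rows that averaged 5 TPM or more. The nearest to Kdm3a were Nampt (distance 0.0926), the rate-limiting enzyme of NAD salvage, Pik3c2b (0.124), a class II phosphoinositide kinase, and Plekha2 (0.133), a phosphoinositide-binding adaptor. Nampt was at 182 and 103 TPM at high density and at 39.1 and 33.8 TPM at low density, with high density library 1 again the higher. The nearest to Kdm2b were Akap13 (0.0151), a kinase anchoring protein, Ahdc1 (0.031) and Capn1 (0.035), a calcium-dependent protease. With 4 libraries many rows share a profile, so likeness is a description.

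The other JmjC genes, 21 in number, were examined as the rest of the family, of which 17 passed the filter. This list and the gene lists that follow were also set with earlier results of these data known. Their counts and p-values are therefore descriptive. Kdm7a, Jarid2 and Uty (3 of 17) rose at high density by limma, where 4.57% of all rows were called higher, and 0 fell, with a median log2 fold change of 0.60 and 13 of 17 values above 0 (59.7% over all rows). At an unadjusted p under 0.05 there were 8 higher and 1 lower, where 15.7% and 7.76% of all rows were. Kdm7a, a demethylase of dimethylated H3K9 and H3K27 that reads methylated H3K4 through a PHD finger, was at 26.3 and 23.9 TPM at high density and at 7.53 and 5.29 TPM at low density. Its log2 fold change was 1.83 ± 0.30 (SE, limma adjusted p = 0.00494), close in size to that of Kdm3a. Jarid2, a cofactor of the Polycomb complex PRC2 that has a JmjC domain without demethylase activity, was at 92.7 and 42.7 TPM at high density and at 20.7 and 16.2 TPM at low density (limma adjusted p = 0.0138). Its ratio of means was 3.67, and 2.32 without high density library 1. Uty, the Y-linked relative of Kdm6a, was at 27.7 and 33.5 TPM at high density and at 14.6 and 13.8 TPM at low density (limma adjusted p = 0.0436).

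None of these 3 calls held without low density library 2, with limma adjusted p of 0.196 for Kdm7a, 0.137 for Jarid2 and 0.692 for Uty. Without low density library 1 Uty was not called (0.497). Over all alternatives the limma adjusted p ran from 0.000417 to 0.289 for Kdm7a, from 0.000103 to 0.507 for Jarid2 and from 0.00595 to 0.692 for Uty, and with each library centred on its median Kdm7a alone was called. With the spread taken from the low density pair alone, Kdm5a, Kdm6a, Phf2, Hspbap1 and Tyw5 were also called higher without high density library 1. Without high density library 2, Kdm8, Jmjd4 and Riox1 were called lower. Over all rows, both fits made more calls in each direction than the fit of all 4 libraries. Nothing is read from these added calls.

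Among genes that did not pass, the H3K9 demethylase gene Phf2 was at 127 and 162 TPM at high density and at 107 and 83.8 TPM at low density, the highest level of the 17. Jmjd1c, a KDM3 relative, was at 36.8 and 38.5 TPM at high density and at 27.9 and 22.5 TPM at low density, and Phf8, which acts on H3K9 and H4K20, at 24.0 and 20.3 TPM at high density and at 20.8 and 16.2 TPM at low density. The hydroxylases of non-histone proteins included the lowest fold changes of the family. Riox1, a ribosomal protein hydroxylase, was at 26.1 and 34.1 TPM at high density and at 50.3 and 42.4 TPM at low density, and Jmjd4, a hydroxylase of the translation release factor eRF1, at 4.53 and 8.88 TPM at high density and at 11.6 and 9.35 TPM at low density (limma adjusted p = 0.194 for Riox1 and 0.317 for Jmjd4). Annotated exons of Riox1 overlap an antisense gene, Gm26571, over 31.9% of their length. Hif1an, the asparaginyl hydroxylase that limits HIF activity, was at 28.6 and 32.9 TPM at high density and at 29.4 and 25.4 TPM at low density, groups that overlapped. For Tyw5, Hspbap1, Kdm8, Jmjd8 and Hr the log2 fold changes ran between −0.36 and 0.87. Kdm4d, Kdm5d, Jmjd7 and Riox2 lay below the filter.

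**Figure D3:**
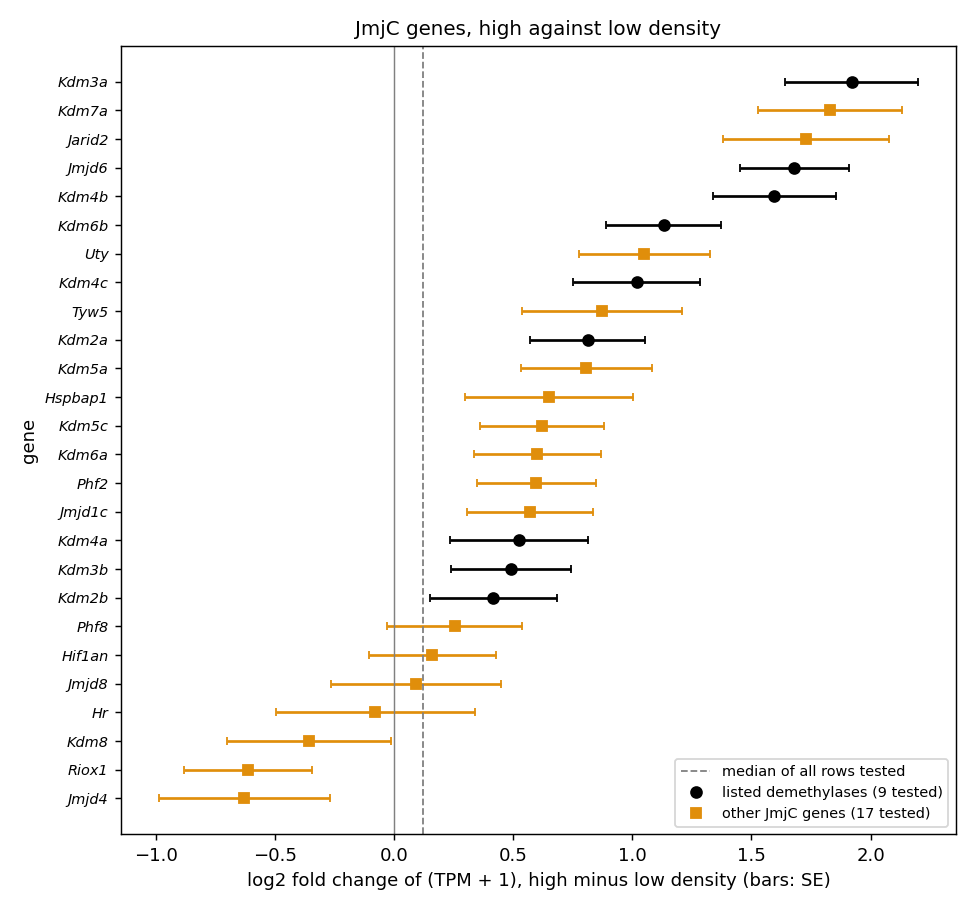
Log2 fold changes of (TPM + 1), high minus low density, with standard errors for the 26 JmjC genes that passed the filter; black circles are the 9 demethylase genes of the list and orange squares the 17 other genes. Kdm3a, Kdm7a and Jarid2 head the order, Riox1 and Jmjd4 end it, and the dashed line marks the median of all rows, 0.12.

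The enzymes that write the marks were examined beside those that remove them. Of 28 tested genes of methyltransferases and their complexes for H3K4, H3K9, H3K27 and H3K36, limma called 0, with 6 higher and 2 lower at an unadjusted p under 0.05 (15.7% and 7.76% of all rows), and the median log2 fold change was 0.32, beside 0.12 for all rows. The medians were 0.33 for the 7 H3K4 genes (limma called 0, 2 at an unadjusted p under 0.05), −0.019 for the 5 H3K9 genes (0 and 0), 0.33 for the 10 PRC2 genes (0 and 3) and 0.43 for the 6 H3K36 genes (0 and 3). The FAD-dependent demethylases Kdm1a and Kdm1b, which use no 2-oxoglutarate, had log2 fold changes of 0.19 ± 0.23 and 0.09 ± 0.27 (SE), and limma called 0 of the 2 at either threshold. Whether the fold changes of these lists differ from those of the JmjC genes was not tested.

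Summed levels per mark put both sides together. For H3K9 the KDM3-type demethylases (Kdm3a, Kdm3b, Jmjd1c and Hr) summed to 441 and 318 TPM at high density and to 158 and 129 TPM at low density, while the 6 methyltransferases summed to 472 and 485 TPM at high density and to 493 and 413 TPM at low density. Their ratio was 0.934 and 0.655 at high density, against 0.321 and 0.311 at low density. For H3K27 the KDM6-type genes Kdm6a, Kdm6b and Uty summed to 167 and 171 TPM at high density and to 90.7 and 77.9 TPM at low density. The methyltransferases Ezh1 and Ezh2 summed to 363 and 399 TPM at high density and 358 and 297 TPM at low density. This sum was thus also higher in both high density libraries, narrowly so in library 1. Ezh2 alone overlapped, at 329 and 365 TPM at high density and 335 and 279 TPM at low density. The ratio of the KDM6-type sum to the Ezh1 and Ezh2 sum was 0.461 and 0.430 at high density and 0.254 and 0.262 at low density. For H3K36 the methyltransferase sums of the densities overlapped, at 329 and 436 TPM at high density and 340 and 296 TPM at low density, and the ratio of Kdm2a and Kdm2b to these 6 genes was 0.403 and 0.295 at high density and 0.257 and 0.244 at low density. For H3K4 the KDM5 genes summed to 104 and 126 TPM at high density and to 78.3 and 61.1 TPM at low density. The 7 H3K4 methyltransferases summed to 360 and 440 TPM at high density and to 349 and 295 TPM at low density, again higher in both high density libraries, and the ratio was 0.288 and 0.287 at high density and 0.224 and 0.207 at low density. In each mark, as summed here, both high density ratios were above both low density ratios, by the widest margin for H3K9. The sums include genes of the list, which were chosen with these values known, so this order is a description. No share over sums of other genes was computed. KDM4 genes act on several marks and are in none of these sums, and neither are Phf2, Phf8 and Kdm7a, which also act on H3K9. Of these, Phf2 was at 127 and 162 TPM at high density and 107 and 83.8 TPM at low density. The H3K4 sum leaves out the FAD-dependent H3K4 demethylase gene Kdm1a, at 155 and 137 TPM at high density and 138 and 117 TPM at low density. This level lay above the KDM5 sum in every library. Ratios with the genes left out were not computed, and RNA levels are not enzyme activities.

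**Figure D4:**
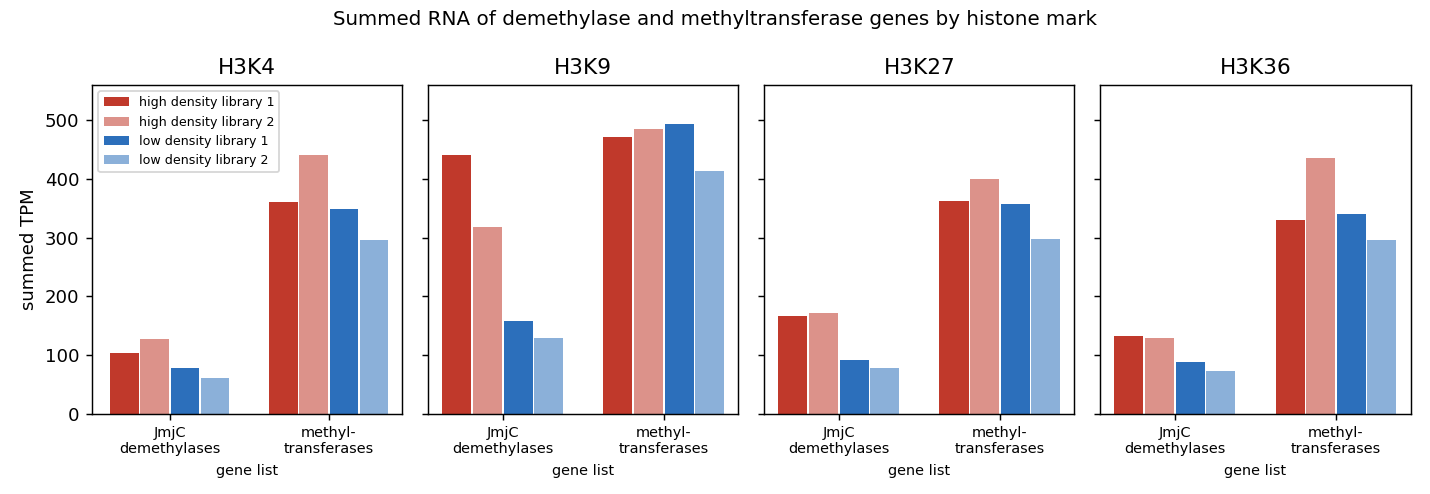
Summed TPM of JmjC genes of the KDM2, KDM3, KDM5 and KDM6 classes and of methyltransferase genes for 4 histone marks. Each library has a bar, with high density in red and low density in blue. For H3K9 the demethylase sum is 441 and 318 TPM at high density against 158 and 129 TPM at low density, while the methyltransferase sums of the densities overlap.

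Of 9 partners of KDM2B in PRC1.1, 2 rose and 0 fell at high density by limma (4.57% and 2.11% of all rows), and the list median was 0.64. At an unadjusted p under 0.05 there were 5 higher and 1 lower (15.7% and 7.76% of all rows). Pcgf1, the subunit that defines PRC1.1, was at 59.3 and 95.1 TPM at high density and at 23.4 and 28.4 TPM at low density (log2 fold change 1.51 ± 0.29 SE, limma adjusted p = 0.0109). Rnf2, the ubiquitin ligase subunit RING1B, was at 64.9 and 84.3 TPM at high density and at 36.9 and 32.2 TPM at low density (log2 fold change 1.08 ± 0.26 SE, limma adjusted p = 0.030). Neither call held when low density library 1 was left out (limma adjusted p = 0.123 for Pcgf1 and 0.235 for Rnf2) or when library 2 was (0.0732 for Pcgf1 and 0.539 for Rnf2). Over all alternatives the limma adjusted p ran from 0.000571 to 0.405 for Pcgf1 and from 0.00327 to 0.539 for Rnf2.

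Of 18 genes for enzymes that make or use 2-oxoglutarate, succinate and fumarate, the cosubstrate and inhibitors of JmjC enzymes, limma called 0, with 0 higher and 2 lower at an unadjusted p under 0.05 (15.7% and 7.76% of all rows). The median log2 fold change was −0.017 and the range −0.62 to 0.46.

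**Figure D5:**
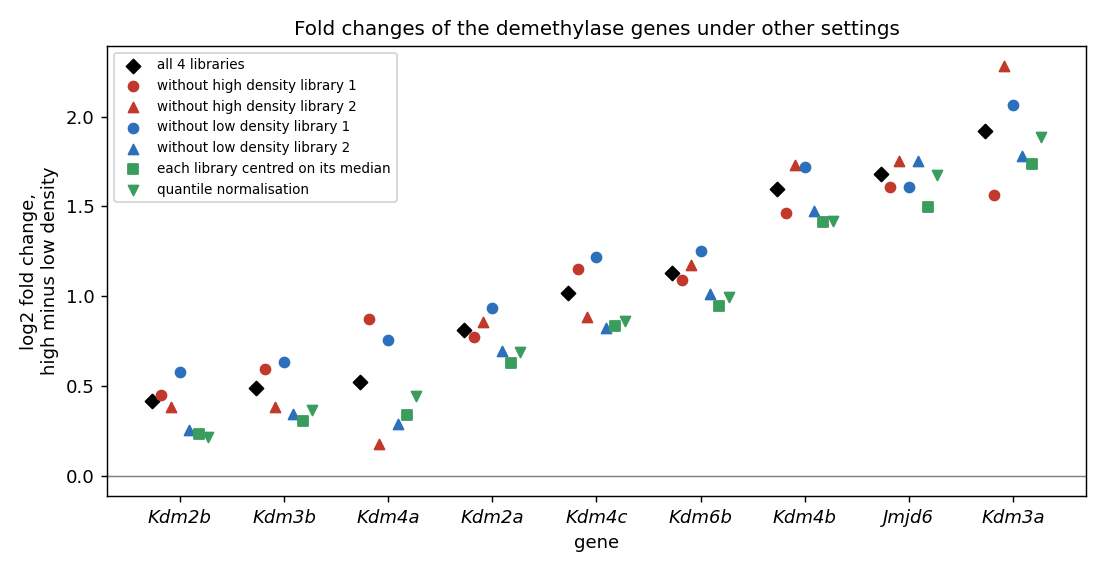
Log2 fold changes of the 9 tested demethylase genes, high minus low density, with all 4 libraries (black), without each library in turn (red for high density, blue for low density) and after 2 rescalings (green). All values lie above 0; for Kdm3a the value is 1.56 with high density library 1 left out and 2.28 with library 2 left out, and for Kdm4a 0.87 and 0.17.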

How the data were processed

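RNA of 4 BEKO libraries was measured by strand-specific RNA sequencing, per the labels' protocols. The authors deposited a table of TPM values that sums to 1000000 in each library. The submitters' processing notes name the build mm9 and DESeq2 1.2.10 without a role; aligner, counter, annotation and gene lengths are named in none of the sources used here. TPM keeps no depth, so reads per library are unknown and no counting interval is given. TPM is relative, so a rise of abundant RNAs lowers other values.

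Columns were tied to samples by the sample descriptions. Rows averaging 1 TPM or more (10936 of 25630) were fitted on log2(TPM + 1) for high against low density. The fit used limma 3.58.1 (R 4.3.3; moderated variances with a trend, two-sided, Benjamini-Hochberg over all rows, called under 0.05). A fold change on this scale understates that of low genes. Residual degrees of freedom were 2, and moderation added 9.53. Limma was tested on simulated data. An alignment of proteins had been planned and was not made. Promoters are from RefSeq (GRCm38.p6). Exon overlaps and shared 50-base stretches come from GENCODE vM21, with no coordinates printed.

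The genes and lists were chosen with earlier results of these data known. Named were all 10 genes, the other JmjC genes, up to 4 called members of each further list and the 3 nearest profiles of the extremes. Alternatives were other pseudocounts (0.1 and 5), no filter or 5 TPM, median centring, quantile normalisation, limma without trend or with robust moderation, a replicate block, and leaving out each library.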

Additional observations from a re-analysis of the deposited data

How the results depend on the processing

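Over all rows limma called 731 (500 higher, 231 lower). The count was 314 with each library centred on its median (160 higher, 154 lower), 360 after quantile normalisation (216 higher, 144 lower) and 0 without the filter, where 2565 rows had an unadjusted p under 0.05. Leaving out 1 library gave 233 to 3270 calls, the most without high density library 1. The share of calls that were higher was 68.4%, against 51.0% after centring, 60.0% after quantile normalisation and 50.7% without high density library 2. Of the listed demethylases 5 were called, 2 after centring (Jmjd6 and Kdm4b), 3 after quantile normalisation, 0 without the filter and 2 to 7 with 1 library left out. Of the other JmjC genes 3 were called, 1 after centring or quantile normalisation, 0 without the filter and 0 to 8 with 1 library left out. Of the 57 methyltransferase, partner, metabolite and FAD-dependent demethylase genes 2 were called, 4 with the filter at 5 TPM, 1 without the trend, 0 without the filter and 0 to 17 with 1 library left out. The fit without the filter tested 25630 rows. The cause of these changes, the loss without the filter included, was not tested.

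None of the 9 listed genes changed direction over the 8 settings that can move a log2 fold change. For the 8 genes whose groups did not overlap, another pseudocount or a library left out cannot turn the sign by construction. Of the 72 values of the 9 genes, 63 moved by less than the spread between libraries and 9 by more. Leaving out a library cannot move a value beyond that spread by construction, so the 63 is no measure of robustness. All 9 values beyond the spread came from median centring or quantile normalisation. The other 5 settings (filters, trend, robust moderation and block) leave the log2 fold change as it is by construction. Among the uncalled other JmjC genes the log2 fold change turned for Hr (0.067 when low density library 1 was left out; −0.38 to 0.22 over the 4 libraries left out in turn), Kdm8 (−0.80 to 0.088), Jmjd8 (−0.32 to 0.50, −0.094 after centring and −0.14 after quantile normalisation) and Hif1an (−0.026 after centring and −0.048 after quantile normalisation).

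Replicate numbers are shared by the densities, but the deviations of same-numbered libraries correlated at only 0.0416 and no label says that they share a culture. With the replicate number as a block 937 rows were called, with 5 of the listed genes and 2 of the other JmjC genes, Uty losing its call (limma adjusted p = 0.0724). The low number of libraries limits every comparison, and depth is unknown.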

Other observations

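The Y-linked genes of these cells did not share a level, a comparison chosen after the values were seen. Uty, Ddx3y and Eif2s3y were detected in all 4 libraries: Ddx3y at 64.8 and 86.8 TPM at high density and 62.1 and 53.6 TPM at low density, and Eif2s3y at 167 and 190 TPM at high density and 109 and 116 TPM at low density. Kdm5d, the Y-linked H3K4 demethylase gene, was at 0.0143 and 0 TPM at high density and 0.13 and 0.0132 TPM at low density. Kdm5b and Riox2, which are not Y-linked, were at 0 in both high density libraries and in low density library 2. Both were above 0 in low density library 1 alone (0.125 and 0.0733 TPM).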
